A study of Homo sapiens with 6 samples.

Results

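The BCL2 family controls whether the outer membrane of the mitochondrion stays closed or is opened, the step that releases cytochrome c and commits a cell to apoptosis. Anti-apoptotic members hold the effectors and the BH3-only proteins, the effectors form the pores, and the BH3-only proteins switch on the effectors or occupy the anti-apoptotic members. K562 is a human leukemia line with red cell features, driven by the BCR-ABL kinase, and leukemia cells of this kind are known to lean on anti-apoptotic members of the family. The 10 genes described here were chosen by name from this family: anti-apoptotic MCL1, BCL2L1, BCL2 and BCL2A1, the effectors BAX and BAK1, and the BH3-only genes BCL2L11, BBC3, PMAIP1 and BID. They were chosen with earlier results of these data known, and are 10 of the 62252 genes to which transcripts were assigned. Of the 21045 genes with enough counts for a test, 9 belong to the family, and BCL2A1 did not reach the minimum, a mean count above 10.

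Messenger RNA was measured in 6 libraries of polyA RNA from K562 cells, 3 controls without doxycycline (−Dox) and 3 treated with it (+Dox, overexpression of PCBP1). All 6 came from cells with the same cassette in the AAVS1 locus, Flag-tagged PCBP1 under a tet-inducible promoter with a puromycin resistance gene, so that Dox itself is a difference between the groups beside the induced Flag-PCBP1. The founder line K562flox was grown from a single cell after blasticidin selection, and the Flag-PCBP1 line derived from it was kept as a polyclonal culture under puromycin. The dose of Dox and the time of treatment for these 6 libraries are not given in the sources used here. The sources state both for a separate experiment, the immunoprecipitation of RNA with Flag-PCBP1. Nor is it said that replicates came from separate cultures, so p-values measure only the spread between these libraries.

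By the estimated counts of Salmon, library sizes were 84177316, 80104627 and 74766040 for the −Dox replicates, taken in the order of their numbers, followed by 70905656, 82263502 and 82449808 for the +Dox replicates. Counts scaled to library size (CPM) were normalized by TMM, and TPM values, which are scaled for transcript length, were used to compare levels between genes. PCBP1, the induced gene, stood at 248, 270 and 267 CPM in −Dox and at 1030, 936 and 1037 CPM in +Dox (log2 fold change 1.94, SE 0.055, quasi-likelihood test of edgeR with Benjamini-Hochberg adjustment, adjusted p = 5.22e-10). The erythroid markers HBG2, HBG1, HBE1, HBZ, GATA1, KLF1, TFRC and TAL1 were present above 1 CPM, whereas CD3E, CD2, MS4A1, CD79A, CD14, CDH1 and COL1A2 were at 0.12 CPM or less in both group means. LYZ, EPCAM, CD3D and COL1A1 are listed above 1 CPM in these libraries.

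Of the 9 tested members, 4 (44.4%) passed the test and were lower in +Dox (MCL1, BCL2L1, BBC3 and PMAIP1), and none was called higher. The log2 fold changes of all 9 were below 0, that of BCL2L11 not in every setting. Over all genes tested, 1616 (7.68%) were lower, 1717 (8.16%) were higher and 3333 (15.8%) changed in either direction at an adjusted p under 0.05. The median log2 fold change was −0.27 over the 9 members and 0.01 over all genes. No member changed by more than 2-fold, a limit passed by 308 genes (1.46%). In 6 of the 9 members all 3 +Dox libraries lay below all 3 −Dox libraries, a pattern found in 3325 (15.8%) of all genes. In bulk RNA, less RNA of a gene per cell and fewer cells with that RNA cannot be told apart.

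**Figure D1:**
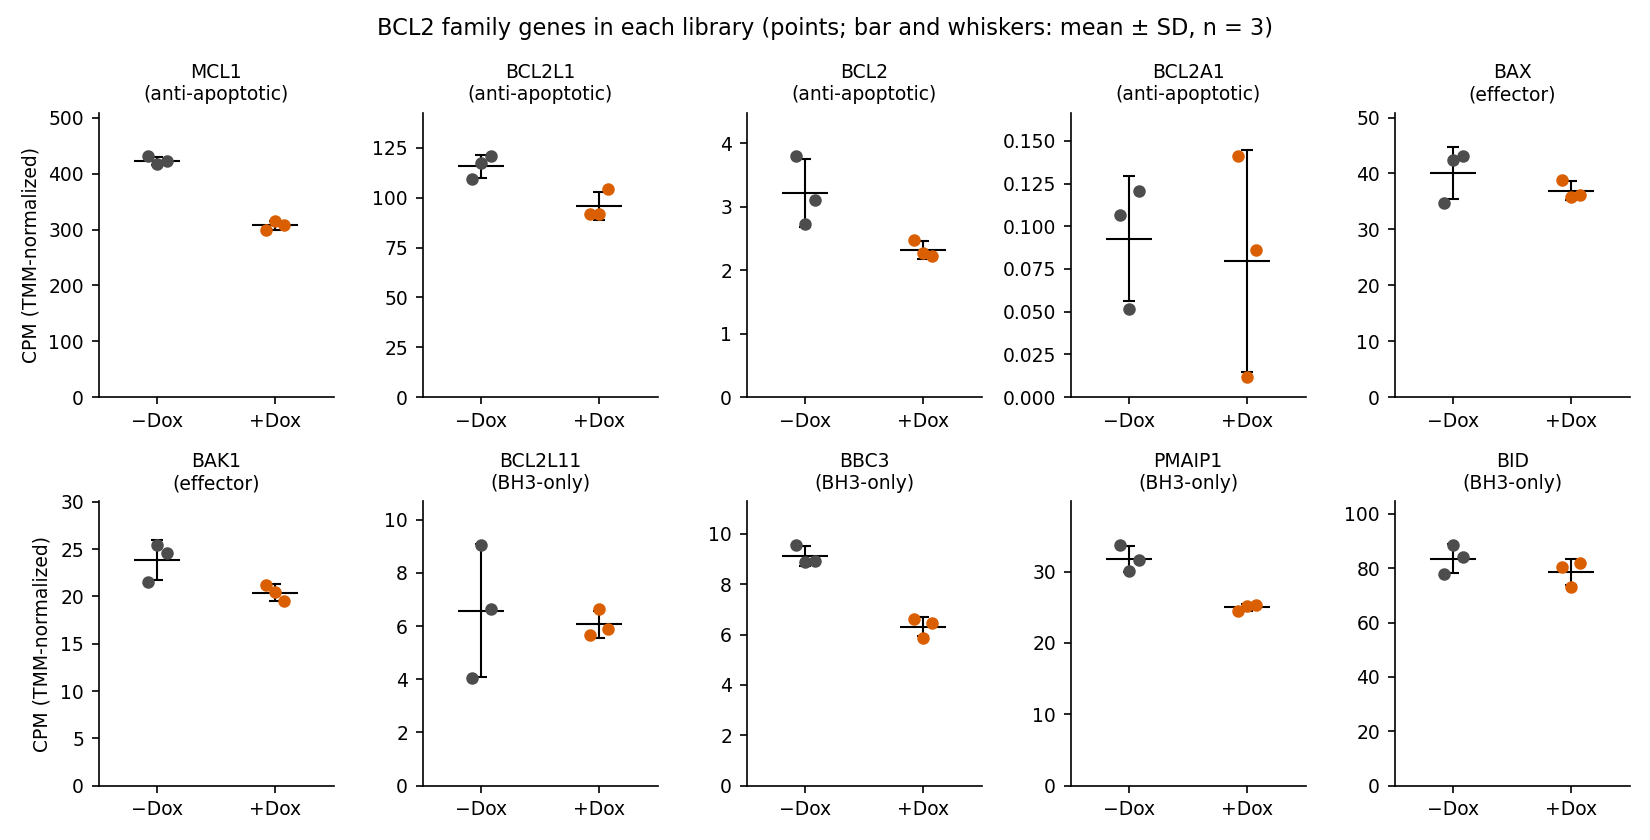
CPM (TMM-normalized, vertical axis from 0) of the 10 BCL2 family genes in each of 3 −Dox (grey) and 3 +Dox (orange) libraries, with the mean and SD as a bar and whiskers. The groups are apart for MCL1, BCL2L1, BCL2, BAK1, BBC3 and PMAIP1, and they overlap for BAX, BCL2L11, BID and BCL2A1.

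MCL1 (chr1:150560895-150579738, minus strand, GRCh38), a short-lived anti-apoptotic protein that holds BAK1 and the BH3-only proteins, had the smallest p of the family. Its level was 431, 417 and 422 CPM in −Dox and 299, 315 and 309 CPM in +Dox. The +Dox libraries were all lower, and the gap between the groups was wider than the range within either. On average MCL1 fell from 423 ± 7.09 to 308 ± 8.41 CPM (SD, n = 3), a fold of 0.727 with a log2 fold change of −0.46 (SE 0.044, adjusted p = 2.18e-05 by edgeR). Per length, MCL1 stood at 115, 112 and 109 TPM in −Dox and at 73.2, 81.0 and 74.6 TPM in +Dox.

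MCL1 is also known for its splice forms. The long form, with all exons, protects cells, and the short form skips the exon printed here and is known to act in favour of cell death. The sequence is shown because the presence of this exon separates the forms whose shares are given next. It is 248 bases long (capitals, coding sequence), stands on the minus strand at chr1:150578244-150578491, and is flanked by 20 intron bases on each side in lower case (window chr1:150578224-150578511, GRCh38).
MCL1 exon 2: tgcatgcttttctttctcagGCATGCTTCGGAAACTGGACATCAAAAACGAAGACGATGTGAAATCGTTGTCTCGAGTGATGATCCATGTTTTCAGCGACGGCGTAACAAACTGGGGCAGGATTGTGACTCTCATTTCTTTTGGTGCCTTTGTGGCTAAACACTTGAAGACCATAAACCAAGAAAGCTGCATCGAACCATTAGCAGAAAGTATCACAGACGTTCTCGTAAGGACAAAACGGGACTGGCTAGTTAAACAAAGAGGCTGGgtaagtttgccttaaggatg

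The share of MCL1 transcripts with the complete coding sequence of 1050 bases was 77.9%, 80.9% and 79.8% of the gene's TPM in −Dox and 79.6%, 79.6% and 79.7% in +Dox. The groups overlapped, and the means were 79.5 ± 1.51% and 79.6 ± 0.0388% (SD, n = 3). The transcript without exon 2 (MCL1-201, coding 813 bases) held 2.64%, 2.73% and 3.33% in −Dox and 2.55%, 3.39% and 4.71% in +Dox, with a log2 ratio of its share of 0.27 (SE 0.28, adjusted p = 0.866 by limma over all forms tested). Transcripts of MCL1 with no coding sequence, among them 2 with a retained intron, made up 17.4 ± 1.65% and 16.5 ± 1.11%. No form of MCL1 was called for a change of its share. Among single transcripts, MCL1-208, which carries the same coding sequence as MCL1-202, held 5.96%, 12.2% and 3.06% in −Dox and 3.40%, 0% and 0% in +Dox. Its groups overlapped and the share was not called (adjusted p = 0.72 by limma). MCL1-202, the leading transcript, stood at 82.6, 76.7 and 83.9 TPM in −Dox and at 55.8, 64.4 and 59.4 TPM in +Dox.

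BCL2L1 (chr20:31664452-31723989, minus strand), which encodes BCL-XL and is the anti-apoptotic member known to protect late red cell precursors, was the other anti-apoptotic gene called. It measured 109, 117 and 121 CPM in −Dox and 91.9, 91.7 and 104 CPM in +Dox. The highest +Dox library lay just below the lowest −Dox library. BCL2L1 fell from 116 ± 5.99 to 95.9 ± 7.13 CPM (SD, n = 3), with a log2 fold change of −0.27 (SE 0.060, adjusted p = 0.00846 by edgeR). Over its exon bases 41.3% are shared with ABALON on the opposite strand, a gene with a mean of 0.44 CPM in −Dox against 0.23 CPM in +Dox.

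The forms of BCL2L1 differ by the place where its first coding exon ends. The long form (BCL-XL, coding 699 bases) goes on for 189 bases, or 63 codons, past the donor site used by the short form (BCL-XS, coding 510 bases), which is known to favour cell death. That segment is shown in capitals, since its use is what the form shares measure (chr20:31721655-31721843, minus strand). The 20 bases before it belong to both forms and the 20 after it to the intron (window chr20:31721635-31721863, GRCh38).
BCL2L1 segment: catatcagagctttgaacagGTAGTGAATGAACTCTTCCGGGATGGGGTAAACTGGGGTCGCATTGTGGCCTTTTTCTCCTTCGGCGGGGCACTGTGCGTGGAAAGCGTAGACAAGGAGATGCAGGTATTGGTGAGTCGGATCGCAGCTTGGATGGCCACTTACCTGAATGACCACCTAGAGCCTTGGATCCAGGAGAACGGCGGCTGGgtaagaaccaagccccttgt

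The long form of BCL2L1 held 89.2%, 91.1% and 90.9% of the gene's TPM in −Dox and 90.7%, 92.7% and 88.1% in +Dox. The short form held 8.53%, 7.66% and 6.28% in −Dox and 6.55%, 5.50% and 9.71% in +Dox. The groups overlapped for both, and neither share was called (log2 ratio 0.03, SE 0.26, adjusted p = 0.988 for the long form and −0.07, SE 0.29, adjusted p = 0.975 for the short form, by limma).

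**Figure D2:**
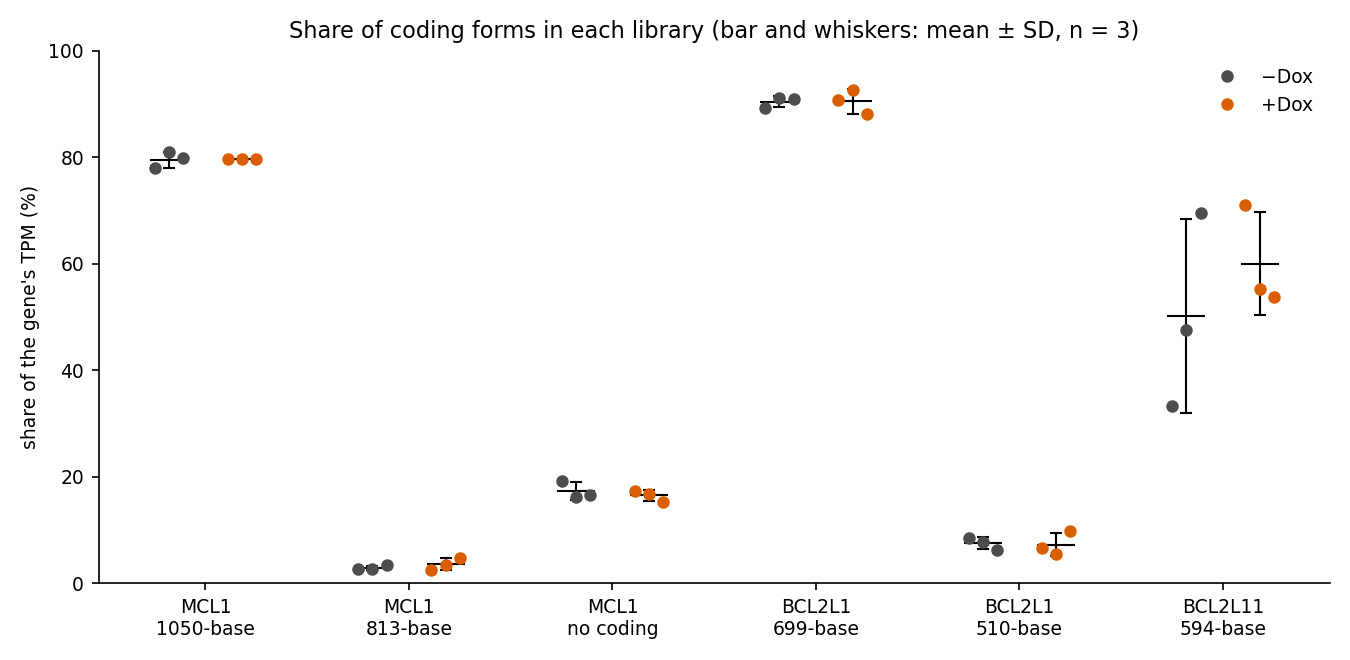
Share of the gene's TPM (%, vertical axis) held by 5 coding forms of MCL1, BCL2L1 and BCL2L11 and by the transcripts of MCL1 with no coding sequence, in 3 −Dox (grey) and 3 +Dox (orange) libraries, with mean and SD. For each of the 6 drawn the groups overlap, and the share of the 594-base form of BCL2L11 lies between 33.3% and 71.1%, the widest range of the 6.

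None of the 15 annotated transcripts of BCL2L1, many of which share the long form and differ in their ends or untranslated exons, was called for its share. BCL2L1-201 had the highest mean share, with 30.4%, 27.2% and 25.9% of the gene in −Dox and 41.5%, 34.8% and 32.0% in +Dox. Its +Dox shares were all above its −Dox shares, yet the difference did not pass the test over all transcripts (log2 ratio 0.55, SE 0.24, adjusted p = 0.742 by limma). In TPM, BCL2L1-201 stood at 13.0, 11.3 and 11.7 in −Dox and at 13.4, 12 and 11.7 in +Dox, and the remaining transcripts together stood at 29.7, 30.1 and 33.6 in −Dox and at 18.9, 22.5 and 24.8 in +Dox. The ratio of the +Dox to the −Dox mean was 1.03 for BCL2L1-201 and 0.709 for the remaining transcripts. These ratios are a description, since the gene was divided at this transcript with its shares known. BCL2L1-207, another transcript of the long form, went the other way in share, with 3.84%, 2.98% and 2.88% in −Dox and 0.575%, 1.4% and 2.84% in +Dox (adjusted p = 0.743 by limma).

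**Figure D3:**
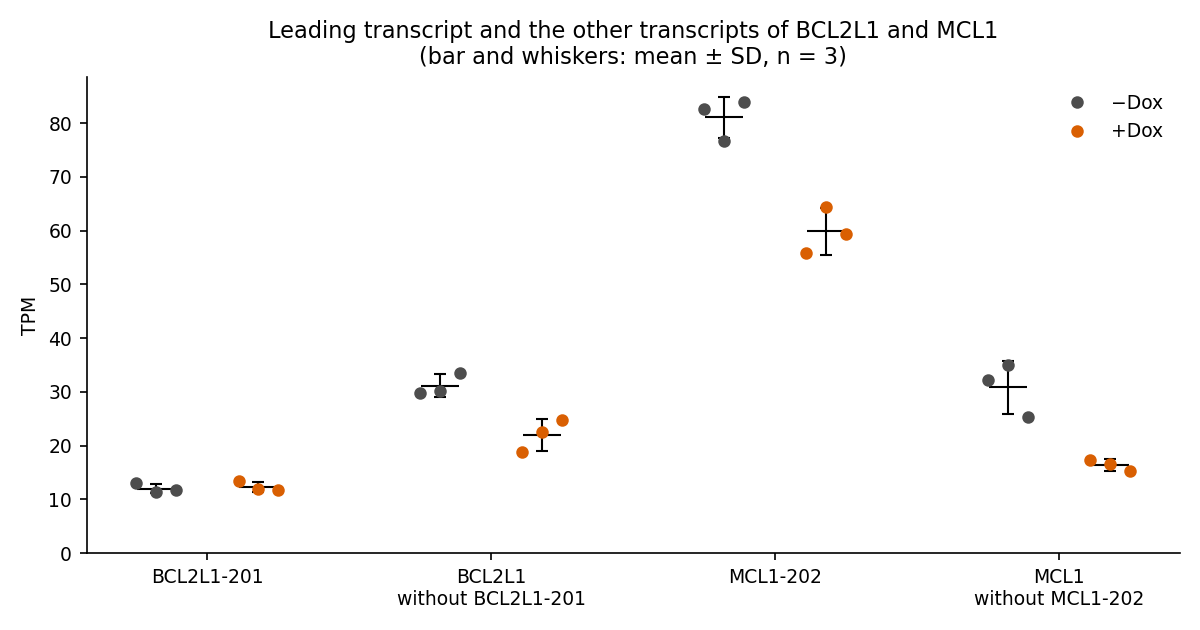
TPM (vertical axis from 0) of the leading transcript and of all other transcripts of BCL2L1 and MCL1 in 3 −Dox (grey) and 3 +Dox (orange) libraries, with mean and SD. BCL2L1-201 overlaps between the groups at about 12 TPM. The rest of BCL2L1, MCL1-202 and the rest of MCL1 lie lower in all 3 +Dox libraries.

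Across MCL1, BCL2L1 and BCL2L11, 25 of 37 annotated transcripts had enough counts for a test of their share and 0 were called by limma, against 78 of 75755 (0.103%) over all genes. The smallest adjusted p among the 25 was 0.716 and 2 of them, MCL1-204 and MCL1-208, had an unadjusted p under 0.05. Groups were apart for 2 of the 25, BCL2L1-201 and BCL2L1-207, and for 9856 (13%) of all transcripts tested. Of 24 coding or noncoding forms, 12 were tested and 0 were called (0 also at an unadjusted p under 0.05), against 34 of 46378 (0.0733%) over all genes.

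BCL2 (chr18:63123346-63320128, minus strand), the founding member of the family, was scarce in these cells. It measured 3.79, 2.74 and 3.11 CPM in −Dox and 2.48, 2.27 and 2.22 CPM in +Dox. Its +Dox libraries were all lower, but its log2 fold change of −0.47 (SE 0.16) had an adjusted p of 0.0691 by edgeR and was not called. DESeq2 gave an adjusted p of 0.0401 for the same gene. BCL2A1 (chr15:79960892-79971196, minus strand), an NF-kappaB target of blood cells, had 9, 4 and 9 counts in −Dox and 10, 1 and 7 counts in +Dox, too few for a comparison.

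Neither effector was called. BAX (chr19:48954815-48961798, plus strand), which moves from the cytosol to the mitochondrion when activated, stood at 34.7, 42.5 and 43.1 CPM in −Dox and at 38.9, 35.8 and 36.2 CPM in +Dox. The groups overlapped (log2 fold change −0.12, SE 0.078, adjusted p = 0.363 by edgeR). This depends on −Dox replicate 1, the lowest of the 6. Without it the log2 fold change of BAX was −0.21 and the adjusted p 0.0258. BAK1 (chr6:33572547-33580293, minus strand), which resides in the outer membrane, stood at 21.5, 25.4 and 24.6 CPM in −Dox and at 21.2, 20.5 and 19.5 CPM in +Dox. The groups were barely apart, and the log2 fold change of −0.23 (SE 0.072) had an adjusted p of 0.0518 by edgeR, at the edge of the limit. BAK1 was called by DESeq2 (adjusted p = 0.0243) and, in edgeR, without −Dox replicate 1 (log2 fold change −0.30, adjusted p = 0.00838).

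Among the BH3-only genes, BBC3 and PMAIP1 fell, and BID and BCL2L11 were not called. BBC3 (chr19:47220822-47232766, minus strand) encodes PUMA, which binds all anti-apoptotic members. It stood at 9.56, 8.87 and 8.90 CPM in −Dox and at 6.62, 5.88 and 6.45 CPM in +Dox, so that the groups were well apart. The decrease from 9.11 ± 0.390 to 6.32 ± 0.391 CPM (SD, n = 3) was the largest fold change among the called members (0.693; log2 fold change −0.53, SE 0.093, adjusted p = 0.00201 by edgeR).

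PMAIP1 (chr18:59899996-59904305, plus strand) encodes NOXA, which binds MCL1 and sends it for degradation. Its CPM values were 33.8, 30.1 and 31.6 in −Dox and 24.5, 25.2 and 25.3 in +Dox. The +Dox libraries lay close together and below every −Dox library. The gene fell from 31.8 ± 1.85 to 25 ± 0.448 CPM, with a log2 fold change of −0.35 (SE 0.059, adjusted p = 0.00169 by edgeR). The TPM of MCL1 per TPM of PMAIP1 went from 5.08, 5.76 and 5.30 in −Dox to 4.81, 4.96 and 4.80 in +Dox, with the groups apart by less than the range within −Dox.

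BID (chr22:17734138-17774770, minus strand), which links death receptors to the mitochondrion once cut by caspase 8, ranked second among the members by mean TPM in −Dox. It stood at 77.9, 88.6 and 84.0 CPM in −Dox and at 80.5, 73.1 and 82.0 CPM in +Dox, with overlapping groups (log2 fold change −0.09, SE 0.061, adjusted p = 0.383 by edgeR). BCL2L11 (chr2:111119378-111168444, plus strand) encodes BIM, an activator of both effectors whose level is held down by BCR-ABL signalling. The gene stood at 4.05, 9.05 and 6.63 CPM in −Dox and 5.67, 6.63 and 5.88 CPM in +Dox (log2 fold change −0.12, SE 0.21, adjusted p = 0.782 by edgeR). Without −Dox replicate 2, the highest library, the sign turned and the log2 fold change was 0.18. Of its exon bases 10.8% are shared with MIR4435-2HG on the opposite strand, which was far more abundant with a mean of 92.6 CPM in −Dox against 93.0 CPM in +Dox, and the strand setting of the quantification is not given in the sources used here. Smaller overlaps of exon bases were found for MCL1 with ADAMTSL4 (0.691%, opposite strand) and ADAMTSL4-AS1 (5.27%, same strand), for BAK1 with GGNBP1 (4.11%, opposite strand), and for BBC3 with MIR3190 (2.51%) and MIR3191 (2.39%).

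The coding form of 594 bases (BIM-EL) held 33.3%, 47.6% and 69.5% of BCL2L11 in −Dox and 71.1%, 55.2% and 53.7% in +Dox. The form of 414 bases (BIM-L) held 11.7%, 17.0% and 0% in −Dox and 0%, 5.22% and 0% in +Dox. Both overlapped between the groups (adjusted p = 0.869 and 0.789 by limma), and 3 of the 14 annotated transcripts of BCL2L11 had enough counts for a test.

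Compared per length, the order of the family differed between the groups at its top. In −Dox the mean levels were 112 TPM for MCL1, 86.4 for BID, 63.4 for BAX, 43.1 for BCL2L1, 20.9 for PMAIP1, 10.8 for BAK1, 6.17 for BBC3, 2.24 for BCL2L11, 0.552 for BCL2 and 0.167 for BCL2A1. No neighbours in this order overlapped in their range over the 3 −Dox libraries. In +Dox BID at 79.7 ± 1.5 TPM and MCL1 at 76.3 ± 4.13 TPM had overlapping ranges, and the rest kept their order, from BAX at 60.2 TPM and BCL2L1 at 34.4 TPM to BCL2 at 0.361 TPM and BCL2A1 at 0.138 TPM. Summed over the 4 anti-apoptotic genes, the level went from 156 ± 2.36 to 111 ± 4.86 TPM, with the groups apart. The 2 effectors summed to 74.2 ± 6.96 and 69.2 ± 5.10 TPM, with the groups overlapping, and the 4 BH3-only genes to 116 ± 0.512 and 101 ± 1.49 TPM, with the groups apart. MCL1 and BCL2L1 made up nearly all of the anti-apoptotic sum. BID, which was not called, made up most of the BH3-only sum. Its TPM values were 83.2, 88 and 88 in −Dox and 79.1, 78.6 and 81.4 in +Dox, apart in this unit.

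**Figure D4:**
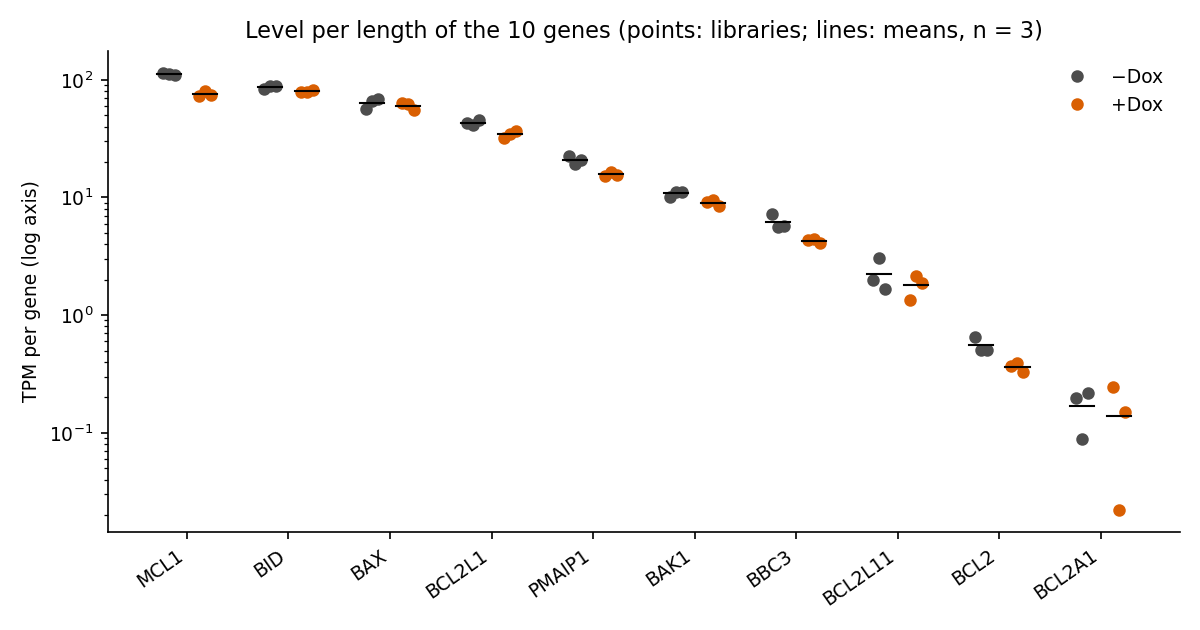
TPM per gene (vertical log axis) of the 10 BCL2 family genes, ordered by their mean in −Dox, in 3 −Dox (grey) and 3 +Dox (orange) libraries, with lines at the means. MCL1 is clear of BID in −Dox (112 and 86.4 TPM) and level with it in +Dox (76.3 and 79.7 TPM), and the family spans from 112 to 0.167 TPM in −Dox.

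Promoter sequence was available in the RefSeq table (GRCh38.p14, windows from 250 bases before to 50 after a start) for 9 of the 10 genes in 14 windows. Of the 4 called members these included PMAIP1, BBC3 and BCL2L1, and their bases upstream of every annotated start are shown, since these genes fell together. Capitals mark GGGCGG or its reverse complement, the GC box bound by SP1.
PMAIP1: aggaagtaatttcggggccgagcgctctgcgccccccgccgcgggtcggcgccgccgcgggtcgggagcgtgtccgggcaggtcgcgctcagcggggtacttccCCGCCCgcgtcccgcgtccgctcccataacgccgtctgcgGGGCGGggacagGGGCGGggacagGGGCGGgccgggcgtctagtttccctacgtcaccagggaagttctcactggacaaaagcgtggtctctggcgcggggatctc
BBC3: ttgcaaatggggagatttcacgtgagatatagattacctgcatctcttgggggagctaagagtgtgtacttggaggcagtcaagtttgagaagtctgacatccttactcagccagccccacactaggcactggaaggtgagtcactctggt
BCL2L1: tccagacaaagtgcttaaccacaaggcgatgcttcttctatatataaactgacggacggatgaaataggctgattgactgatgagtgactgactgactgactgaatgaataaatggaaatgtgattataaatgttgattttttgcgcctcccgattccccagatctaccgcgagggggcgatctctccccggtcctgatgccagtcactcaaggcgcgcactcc

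The window of PMAIP1 (chr18:59899746-59899995, plus strand) was rich in G and C (72.8%) and held 4 GC boxes. The window of BBC3 (chr19:47232767-47232917, minus strand, before the outermost start) was 49% G and C and that of BCL2L1 (chr20:31723990-31724213, minus strand) 47.8%, and neither of these stretches held a GC box. Elsewhere in the windows of the table for these genes, BCL2L1 held GGGCGG and BBC3 held CCAAT. The letters TATAAA occurred at 2 places in the BCL2L1 window and TGACG, the core that the longer TGACGTCA contains, at 1 place in BCL2L1 and 1 in PMAIP1. None of the 3 stretches printed held CCAAT, TGACGTCA, TTCNNNGAA or AGATAA on either strand. At 250 bases (PMAIP1), 151 bases (BBC3) and 224 bases (BCL2L1), they are shorter than the full windows counted next. Over all 35116 windows of the table, 45% held GGGCGG, 34.6% CCAAT, 11.5% TATAAA, 24.6% TGACG, 1.85% TGACGTCA, 7.66% TTCNNNGAA and 10.3% AGATAA, and GGGCGG was found in 9 of the 14 windows of the family. These letters are a description of the windows and were not compared with the measured changes.

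Outside the 10 members, 64 genes of the pathway were examined in 6 lists, also chosen with earlier results known, and 62 had enough counts. Of these, 14 (22.6%) changed by edgeR, 6 higher and 8 lower, beside 15.8% over all genes, and their median log2 fold change was 0.02. Without +Dox replicate 3 the count was 9, and over all genes 2283 changed in place of 3333. Of 9 tested genes among 11 other BCL2 family genes, 6 had a log2 fold change above 0. The 1 called was BCL2L13, a mitochondrial protein with a role in mitophagy, which rose from 73.5 ± 1.51 to 81.9 ± 0.736 CPM (log2 fold change 0.16, SE 0.046, adjusted p = 0.036 by edgeR). Its call was lost without −Dox replicate 2 or 3 or without any +Dox library (adjusted p from 0.0721 to 0.145), with a length offset in edgeR (0.202), and with a summed count above 10 or any count as the filter (0.0582 and 0.0616). It was also lost in DESeq2 with a length offset and the filter of a summed count above 10 together (adjusted p = 0.168). BCL2L2, the closest anti-apoptotic relative of BCL2L1 in this list, stood at 31.0 ± 2.09 and 31.4 ± 2.49 CPM. BCL2L10 had 0 counts in all 6 libraries, and BIK was too low to test.

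Downstream of the mitochondrion, none of the 9 genes of the apoptosome and the caspases was called by edgeR (2 had an unadjusted p under 0.05) or by DESeq2, beside 15.8% called over all genes. CYCS, which encodes cytochrome c itself, stood at 806 ± 22.9 and 747 ± 31.8 CPM (log2 fold change −0.11, adjusted p = 0.14 by edgeR). In the list of IAP genes, whose products restrain caspases, and their antagonists, 2 of 8 (25%) were called, both higher. BIRC3 rose from 2.56 ± 0.302 to 4.62 ± 0.283 CPM (log2 fold change 0.85, SE 0.14, adjusted p = 0.00124). BIRC2, its neighbour and close relative, rose from 66.5 ± 1.28 to 77.7 ± 4.18 CPM (log2 fold change 0.22, adjusted p = 0.0113 by edgeR). The call of BIRC2 was lost without −Dox replicate 3 (adjusted p = 0.0516) or +Dox replicate 3 (adjusted p = 0.0556).

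Upstream, the death receptor list held 3 genes that were lower and none that was higher among 8 tested (37.5% called, beside 15.8% over all genes and 7.68% in the lower direction). TNFRSF1A, the receptor of TNF, measured 24.9, 23.3 and 28.7 CPM in −Dox and 16.1, 15.7 and 15.8 CPM in +Dox (log2 fold change −0.69, SE 0.077, adjusted p = 7.89e-05 by edgeR). TNFRSF10B, a receptor of TRAIL, fell by 0.43 on the log2 scale (adjusted p = 0.000264), and CFLAR, the FLIP protein that blocks caspase 8 at these receptors, fell by 0.36 (adjusted p = 0.000444). In each of the 3 genes every +Dox library was below every −Dox library.

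Of 16 transcription factors known to act on genes of the family, 4 were lower and 2 were higher (37.5% called, beside 15.8% over all genes, with 7.68% lower and 8.16% higher). MYC fell from 150.5 ± 3.40 to 93.3 ± 4.46 CPM (log2 fold change −0.69, SE 0.049, adjusted p = 2.15e-06 by edgeR). STAT5A, which acts below BCR-ABL and is known to switch on BCL2L1 and MCL1, fell from 288 ± 10.3 to 205 ± 2.25 CPM (log2 fold change −0.49, SE 0.045, adjusted p = 1.59e-05). FOXO3, an activator of BCL2L11 and BBC3, rose from 10.1 ± 0.527 to 13.6 ± 0.861 CPM (log2 fold change 0.44, adjusted p = 0.00257). FOXO3 lost its call with a length offset in edgeR (adjusted p = 0.0516) but not in DESeq2 with a length offset and a summed count above 10 as the filter (adjusted p = 0.0111). STAT5B (log2 fold change −0.16, adjusted p = 0.0345), ATF4 of the integrated stress response (−0.24, adjusted p = 0.035) and TP73 (0.58, adjusted p = 0.0385), passed by less. Each of them lost its call without any one +Dox library, STAT5B and ATF4 also without −Dox replicate 1 or 3 and TP73 without −Dox replicate 1 or 2, with adjusted p from 0.0669 to 0.116 for STAT5B, from 0.055 to 0.127 for ATF4 and from 0.0505 to 0.145 for TP73. The length offset in edgeR ended these calls as well (adjusted p = 0.0967, 0.125 and 0.135), and that of TP73 was also lost in DESeq2 with a length offset and a summed count above 10 as the filter (adjusted p = 0.0764).

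Of 12 protein partners, among them the ligases and deubiquitinases that set the stability of the MCL1 protein, 2 were called (16.7%), near the 15.8% over all genes. VDAC1 fell and BNIP3L rose. VDAC1, the channel of the outer membrane, went from 345 ± 8.92 to 290 ± 6.85 CPM (log2 fold change −0.25, adjusted p = 0.00211 by edgeR). BNIP3L, a mitophagy receptor needed to clear mitochondria from maturing red cells, went from 62.5 ± 3.76 to 81.0 ± 10.6 CPM (log2 fold change 0.38, adjusted p = 0.00738). The MCL1 ligase HUWE1 and the deubiquitinase USP9X were not called (log2 fold change 0.03, adjusted p = 0.732, and 0.04, adjusted p = 0.663).

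**Figure D5:**
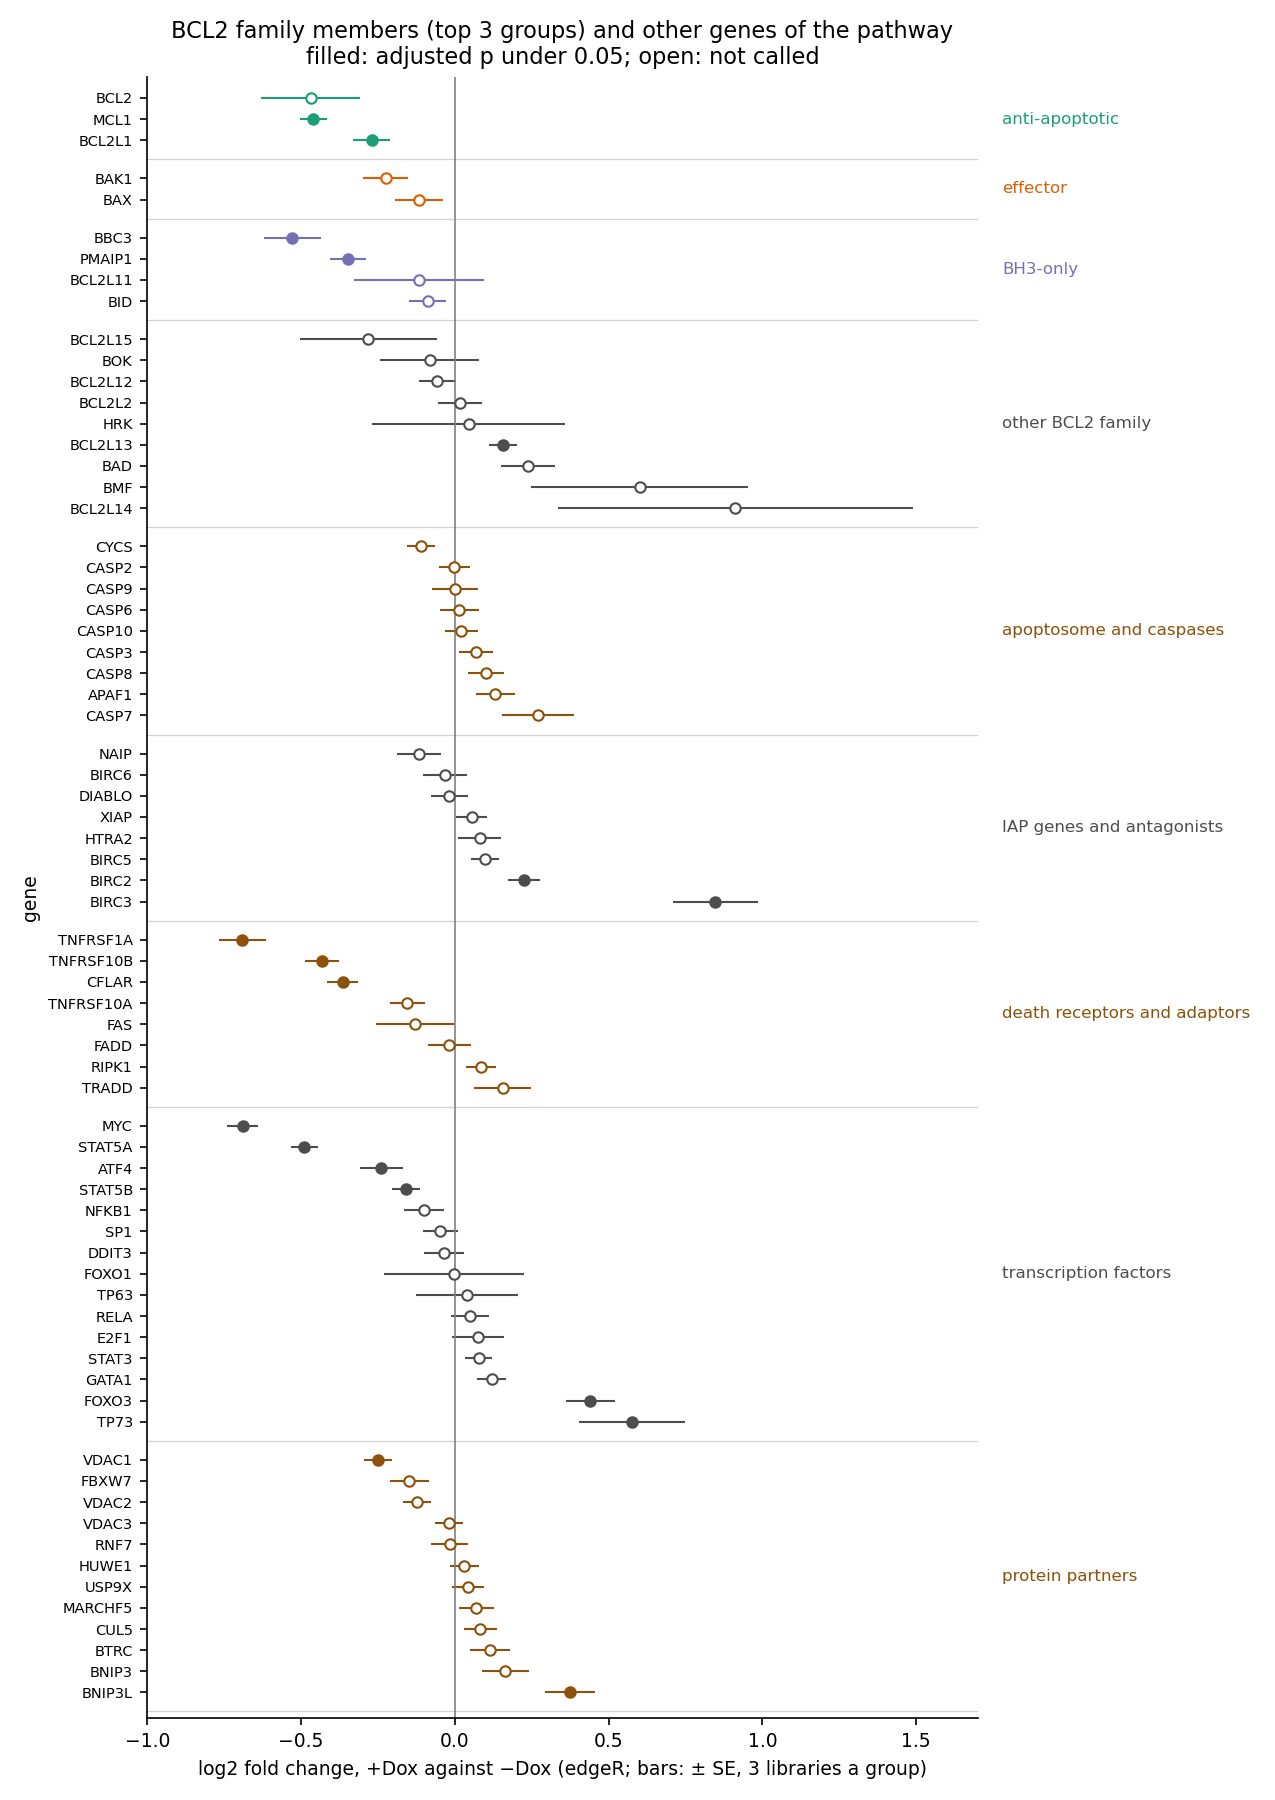
Log2 fold change of +Dox against −Dox by edgeR (horizontal axis; bars are ± SE, 3 libraries a group) for the 9 tested members of the BCL2 family in 3 role groups and for other genes of the pathway in 6 lists, with filled points for an adjusted p under 0.05. All 9 members lie below 0, and the other genes lie on either side, from −0.69 for TNFRSF1A to 0.91 for BCL2L14, which was not called.

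Markers of red cell maturation moved in the same libraries. KLF1, a transcription factor of red cells, rose from 79.1 ± 7.85 to 108 ± 8.16 CPM (log2 fold change 0.46, adjusted p = 0.00121 by edgeR), and TAL1 rose by 0.44 on the log2 scale, while HBZ and TFRC fell by 0.40 and 0.34. HBG2, the most abundant of these markers, stood at 3580 ± 248 and 3620 ± 181 CPM and was not called (log2 fold change 0.02, adjusted p = 0.899). Of the 3 monocyte markers, LYZ fell by 0.47 on the log2 scale (adjusted p = 0.00837), CD14 was near 0 and ITGAM was under 1 CPM, and the list summed to 119, 145 and 169 CPM in −Dox and to 99.0, 98.6 and 116 CPM in +Dox. The part of these genes in the changes of the BCL2 family was not tested.

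MCL1 was the member with the smallest p, and over the 6 libraries the genes outside the family with the most similar log2 CPM were PDLIM5 (Pearson r = 0.9988), SLC6A6 (r = 0.9987) and TBL1XR1 (r = 0.9979). These were picked from 9279 genes of at least 10 CPM, of which 461 had an r above 0.95. The 6 points fall into the 2 groups, so the likeness describes mainly the difference between −Dox and +Dox.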

How the data were processed

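Paired-end reads (150 cycles) were quantified by the authors in Salmon 1.10.2. For every library the authors deposited estimated counts, TPM values and effective lengths in bases of 252045 transcripts, without pooling replicates. The estimated counts are not scaled, and the deposited TPM values are scaled for length and depth. The transcript index, strand and bias settings are not given in the sources used here, so counts of overlapping genes are uncertain. Transcripts were assigned to genes with GENCODE 44 on GRCh38, and 433 without a match took 0.125% to 0.138% of each library. Counts were summed per gene and rounded.

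Genes were tested with edgeR 4.0.16 (glmQLFTest, TMM, two-sided, Benjamini-Hochberg adjustment) over 21045 genes with a mean count above 10, in R 4.3.3. Standard errors were obtained from the F statistic of each gene, as the ratio of its log2 fold change to the root of F. Shares were tested with limma 3.58.1 on log2 ratios with a pseudocount of 0.1 TPM, for features with a mean count of at least 10 in genes of at least 1 TPM. A form sums transcripts with the same coding intervals. The alternatives, with DESeq2 1.42.0 among them, are in the closing section. Each step was tested on simulated data, where the test of shares missed most of the smaller shifts, so a share that was not called may still have changed. All 10 members and every called gene of the 6 lists, up to 5 a list by p, are named. TP73, the sixth by p in its list, BCL2L2, CYCS, HUWE1, USP9X and BCL2L14 do not fall under that rule, and their values had been seen when they were added. Some genes of the lists are not reported here. The members and lists were chosen with earlier results of these data known. Figures were drawn with matplotlib 3.10.9.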

Additional observations from a re-analysis of the deposited data

How the results depend on the processing

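MCL1, BCL2L1, BBC3 and PMAIP1 stayed below an adjusted p of 0.05 in all 14 alternatives, which were RLE size factors, DESeq2, DESeq2 with a length offset and a summed count above 10, 3 filters on low counts, a length offset in edgeR, the replicate number as a term and each library left out in turn. Their log2 fold changes lay between −0.53 and −0.44 for MCL1, −0.33 and −0.24 for BCL2L1, −0.56 and −0.48 for BBC3, and −0.39 and −0.30 for PMAIP1. BCL2 was called in 2 of the 14, BAK1 in 5 and BAX in 1. The log2 fold change of BCL2L11 ranged from −0.373 to 0.180 over the left-out libraries. Leaving out each library gave 2267 to 3313 changed genes, 4 to 6 called members and 9 to 12 called pathway genes. A length offset in edgeR gave 1882 changed genes in place of 3333, and testing genes of any count gave 515 in place of 308 over 2-fold.

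Over all genes, calls of shares rested on the settings. Estimated counts in place of TPM gave 306 transcript shares and 148 form shares in place of 78 and 34, and a pseudocount of 1 TPM gave 22 and 8. Leaving out each library gave 0 to 101 transcript shares and 4 to 38 form shares, with the lowest of each without +Dox replicate 2. No share of MCL1, BCL2L1 or BCL2L11 was called in any of these settings or with a variance trend on the mean count, an alternative chosen after seeing the data. The causes of these differences were not tested.

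Replicate numbers did not pair the libraries, as deviations of same-numbered libraries had correlations of 0.0075, −0.0605 and −0.00285 over genes. With the replicate number as a block, 2490 genes, 4 members and 11 pathway genes were called, and 0 transcript shares and 0 form shares. The block ended the calls of BCL2L13 (adjusted p = 0.108), STAT5B (0.12) and TP73 (0.0519). BCL2A1 had too few counts for a test of the gene, and 12 of the 37 transcripts of the genes with shares had too few for a test of their share.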

Other observations

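Of 46 annotated transcripts of the other members, 25 had enough counts for a test of their share and 0 were called by limma (5 had an unadjusted p under 0.05). Groups were apart for 8 of the 25 (32%), beside 13% over all transcripts tested. The 8 were BAX-201, BAX-202, BAX-203, BAX-207, BBC3-206, BID-201, BID-203 and BID-211, and those with values here were chosen after their values were seen. BAX-202, coding 576 bases, held 26.4%, 25.9% and 31.8% of BAX in −Dox and 36.6%, 35.7% and 34.4% in +Dox. BAX-203 held 11.4%, 11.5% and 14.4% in −Dox and 8.15%, 7.70% and 5.77% in +Dox. BAX-201 held 23.6 ± 0.702% and 18.5 ± 2.40% (SD, n = 3). None of the 3 passed the limma test over all transcripts (adjusted p = 0.741 for BAX-202, 0.663 for BAX-203 and 0.752 for BAX-201).

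In BBC3 the noncoding transcript BBC3-206 held 10.4%, 8.96% and 7.87% of the gene in −Dox and 0.785%, 3.71% and 4.49% in +Dox (adjusted p = 0.688 by limma). BID-203 held 5.45%, 4.2% and 4.75% of BID in −Dox and 2.99%, 3.10% and 1.94% in +Dox (adjusted p = 0.694 by limma).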
